A study of Mus musculus with 4 samples.

Results

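Integrins are the adhesion receptors with which leukocytes grip other cells and the extracellular matrix. The transcripts of a set of their chains were examined here, chosen by gene symbol: the alpha chains Itga4, Itga5, Itga6, Itgal and Itgav and the beta chains Itgb1, Itgb2, Itgb3, Itgb5 and Itgb7. These 10 genes, 5 alpha and 5 beta, were all present among the 16360 symbols of the count table, and all 10 passed the filter on low counts that left 13575 tested genes.

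The cells were recruited alveolar macrophages, which derive from monocytes that enter the lung after injury. The sorting gate took cells high in CD64 and CD11b and low in Siglec-F from male mice of 8 to 10 weeks, labelled strain CD57/Bl6, 7 days after 100 µl of intratracheal bleomycin at 1 U/ml, a drug that injures the lung. The groups were WT mice and mice homozygous for R213G, an arginine-to-glycine substitution in the secreted antioxidant enzyme EC-SOD, with 2 libraries each and 4 in all. Both groups had received bleomycin, so no value here describes an uninjured lung. The labels do not say whether a library came from a single mouse, and p-values therefore rest on the spread among these libraries, which may be technical. Paired values are given for replicate 1 and then replicate 2.

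An integrin on the cell surface is a pair of chains, an alpha and a beta, and a chain without its partner is largely held inside the cell. Itgal pairs with Itgb2 to form LFA-1, the receptor for ICAM-1 that leukocytes use to hold on to endothelium and to each other. Itga4 pairs with Itgb1 to form VLA-4, which binds VCAM-1 and fibronectin, or with Itgb7 to form a homing receptor of gut lymphocytes. Itga5 with Itgb1 is the classical fibronectin receptor, and Itga6 with Itgb1 binds laminins. Itgav joins Itgb1, Itgb3 or Itgb5 in receptors that recognise the RGD motif of vitronectin, fibronectin and osteopontin, and those with Itgb3 or Itgb5 also help phagocytes bind dying cells.

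Total counts ranged from 33488569 to 35176210 per library, and between 13584 (R213G replicate 1, the lowest) and 15194 genes had at least 1 count. Of the genes behind the sort gate, Fcgr1 (CD64) stood at 243 to 261 CPM and Itgam (CD11b) at 721 to 886 CPM, while Siglecf was at 10.8 to 12.1 CPM. CPM stands for counts per 1e6 of the library size after TMM scaling. Sod3, which encodes EC-SOD, had 47 and 96 counts in WT replicates 1 and 2 and 4 and 47 in R213G replicates 1 and 2, and gene counts do not show a base substitution. In bulk libraries, fewer cells of a type and less RNA per cell cannot be told apart.

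The first question was which chains, and so which pairs, were abundant. Because long transcripts collect more reads, levels of different genes were compared as CPM per kb of annotated exon. Itgb2, the beta chain of the leukocyte-specific integrins (chromosome 10, bases 77530252 to 77565708 of GRCm38, plus strand), was the highest of the 10, with 615 and 669 CPM per kb in WT replicates 1 and 2 and 621 and 699 in R213G replicates 1 and 2. Its mean of 651 ± 40.2 (SD, n = 4) placed it at rank 46 of the 13259 tested genes with a known length. The lowest Itgb2 library was above the highest library of every other member.

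Itgb5, a beta chain that pairs with Itgav alone, came next, with 223 and 191 CPM per kb in WT and 177 and 224 in R213G. Itgb1, the most widely shared beta chain of the family, followed with 150 and 145 in WT and 145 and 154 in R213G. Itgb1 was also the steadiest member, since its highest library was 1.07 times its lowest. Itgb5 exceeded Itgb1 in 4 of 4 libraries, by 1.37-fold on the means, and their ranges did not overlap on this scale.

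The alpha chains lay lower. Itga5 had 56.4 and 65.8 CPM per kb in WT and 57.7 and 61.9 in R213G. Itgal had 38.4 and 42.9 in WT and 43.2 and 42.7 in R213G. For Itga6 the values were 32.8 and 28.9 in WT and 24.6 and 33.0 in R213G. The order Itga5, Itgal, Itga6 held in 4 of 4 libraries on this scale.

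Itga4 had 25.1 and 24.7 CPM per kb in WT and 18.3 and 22.3 in R213G, with a range that overlapped that of Itga6. Itgav was the lowest alpha chain, with 11.3 and 13.3 in WT and 11.02 and 12.8 in R213G. The order among alpha chains depended on the length used. With coding length in place of exon length, Itga4 came first at 102 ± 14.2 CPM per kb, followed by Itga5 at 94.4 ± 6.65, Itga6 at 82.2 ± 10.98 and Itgal at 76.2 ± 4.10 (SD, n = 4), with overlapping ranges between each and the next. Itgav was the lowest alpha chain by each of the 3 lengths tried (41.6 ± 3.88 by coding length).

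The low end of the family was held by a pair of beta chains. Itgb7, known from lymphocytes, mast cells and dendritic cells (chromosome 15, bases 102215995 to 102231944 of GRCm38, minus strand), had 16.8 and 6.28 CPM per kb in WT and 13.5 and 8.70 in R213G, so that it stood above Itgav in 2 libraries and below it in 2. Itgb3, the beta chain of the platelet fibrinogen receptor, had 110 and 26 counts in WT and 34 and 46 in R213G, or 0.564 and 0.128 CPM per kb against 0.169 and 0.224. It ranked 12031 of 13259. The beta order Itgb2, Itgb5, Itgb1, Itgb7, Itgb3 was the same by exon, longest-transcript and coding length, although by coding length the ranges of Itgb5 and Itgb1 overlapped.

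**Figure D1:**
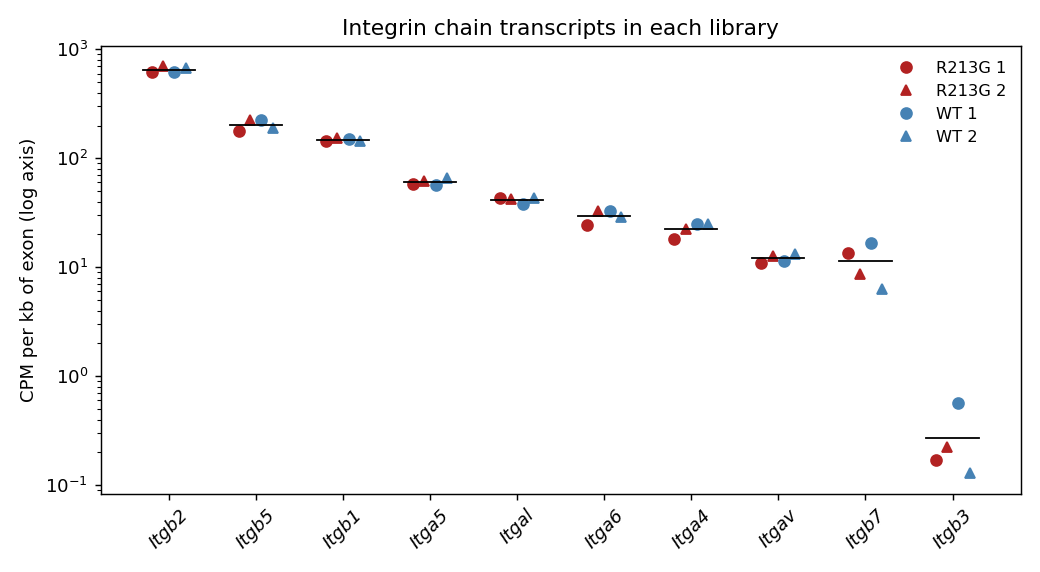
Transcript level of the 10 integrin chains in CPM per kb of exon (log axis), ordered by mean. Each symbol is 1 library (red R213G, blue WT; circle replicate 1, triangle replicate 2) and the line is the mean of 4; Itgb2 stood highest at 651, Itgb3 lowest at 0.271, and Itgb7 and Itgb3 spread most.

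The level of the scarcer chain sets an upper bound on the transcripts that could serve a pair, if protein followed RNA, which was not measured. By that reading 6 of the 8 known pairs among the members had both chains at 10 CPM per kb or more in every library. The scarcer chain was the alpha chain in each of these 6. By exon length Itga5 with Itgb1 had the highest such level, 60.5 ± 4.26 CPM per kb (SD, n = 4), followed by Itgal with Itgb2 at 41.8 ± 2.25, Itga6 with Itgb1 at 29.8 ± 3.98 and Itga4 with Itgb1 at 22.6 ± 3.14. Itgav limited its pairs with Itgb1 and Itgb5 to 12.1 ± 1.13. This order depended on the length used: by coding length Itga4 with Itgb1 came first at 102 ± 14.2, before Itga5 with Itgb1 at 94.4 ± 6.65, Itga6 with Itgb1 at 82.2 ± 10.98 and Itgal with Itgb2 at 76.2 ± 4.10, and by longest transcript Itga6 with Itgb1 (62.4 ± 8.34) lay above Itgal with Itgb2 (52.6 ± 2.83). The pairs share chains, so these levels cannot be added.

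The pairs below that mark were those of the scarce beta chains. Itga4 with Itgb7 was limited by Itgb7 at 11.3 ± 4.74 CPM per kb and reached 10 in 2 of 4 libraries. Itgav with Itgb3 was limited by Itgb3 at 0.271 ± 0.199. Itgav was 20.02 to 104 times Itgb3 per kb, whereas Itgb5 was 14.3 to 19.8 times Itgav by exon length. The mean excess of Itgb5 over Itgav was 16.9-fold by exon length, 12.02-fold by longest transcript and 7.16-fold by coding length. The beta partners of Itgav that were summed were Itgb1, Itgb3, Itgb5 and Itgb6, without Itgb8. By exon length Itgb5 made up 55.0% to 59.6%, Itgb1 40.2% to 44.9% and Itgb3 0.0382% to 0.151% of this sum. By coding length Itgb5 made up 51.0% to 55.7% and Itgb1 44.1% to 48.9%. Itgb1 was counted in full, although it also pairs with other alpha chains.

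The balance within a pair, given as log2 of alpha over beta per kb, varied little between libraries for the abundant pairs. For Itgal over Itgb2 it was -4.00 and -3.96 in WT and -3.85 and -4.04 in R213G. For Itga5 over Itgb1 it was -1.42 and -1.14 in WT and -1.33 and -1.32 in R213G. In both pairs the genotypes overlapped. For Itga4 over Itgb1 it was -2.58 and -2.55 in WT and -2.99 and -2.79 in R213G, a difference of means of -0.32 with no overlap. In every other pair of the 8 the genotypes overlapped. The log2 fold change was 0.02 for Itgb1 and -0.30 for Itga4, so this ratio restates the lower Itga4 of R213G. With 2 libraries in each genotype the smallest two-sided p of an exact permutation test is 0.333, and the ratios are given as values without a test.

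**Figure D2:**
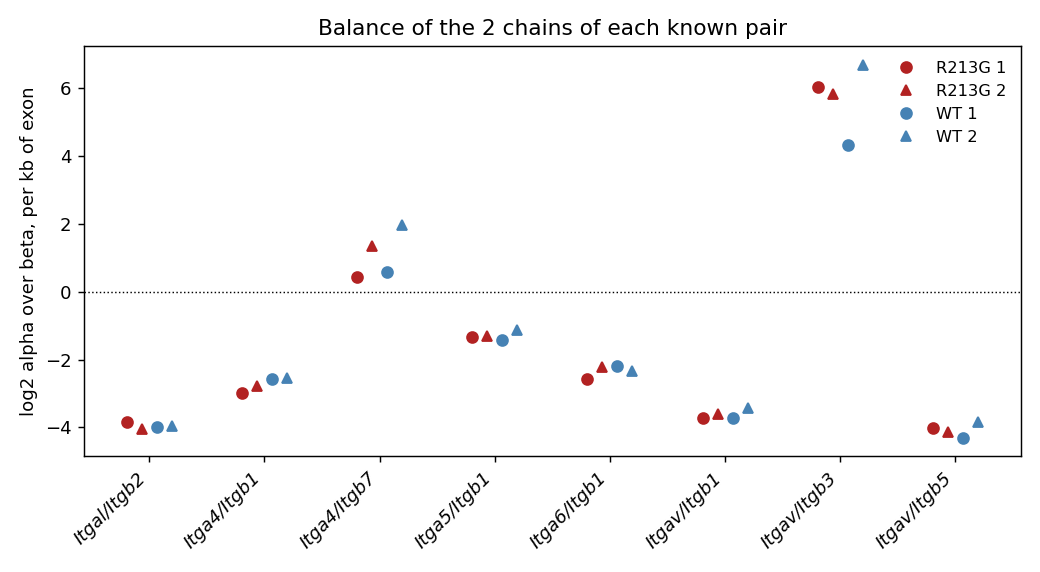
Log2 of the alpha over the beta level (CPM per kb of exon) for the 8 known pairs in each library (red R213G, blue WT; circle replicate 1, triangle replicate 2; dotted line, equal levels). The beta chain was in excess for 6 pairs, and the pairs with Itgb7 and Itgb3 lay above 0 and spread most, between 0.44 and 1.98 and between 4.32 and 6.70.

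Itgb2 was far in excess of Itgal, but Itgal is one of several alpha chains that use it. Itgam (CD11b, which with Itgb2 forms the complement receptor Mac-1) and Itgax (CD11c) were at 161 and 183 CPM per kb on average. Of the summed partners of Itgb2, Itgax took 44.8% to 50.5%, Itgam 38.2% to 44.1% and Itgal 9.49% to 11.5%, and Itgad at most 0.0152%. The sum of these 4 was 0.538 to 0.659 of Itgb2, and it stayed below Itgb2 in every library by the other lengths too (at most 0.733). Since the cells were sorted on CD11b, the level of Itgam is partly what the gate selected.

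For Itgb1, 10 possible alpha partners were in the table, and the 4 members among them accounted for nearly the whole sum. Itga5 made up 44.4% to 51.1% of it, Itga6 21.6% to 25.8%, Itga4 16.2% to 19.8% and Itgav 8.89% to 9.97% by exon length. By coding length Itga4 made up 29.2% to 33.9%, Itga5 26.3% to 31.9%, Itga6 23.1% to 27.1% and Itgav 11.6% to 13.4%, and Itga4 was above Itga5 in 3 of 4 libraries. By exon length the collagen receptor chain Itga1 and the chain Itga9 each reached at most 0.644%. The summed partners were 0.780 to 0.924 of Itgb1 by exon length, but 1.15 to 1.39 by coding length, so whether Itgb1 or its partners were in excess depended on the length used.

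**Figure D3:**
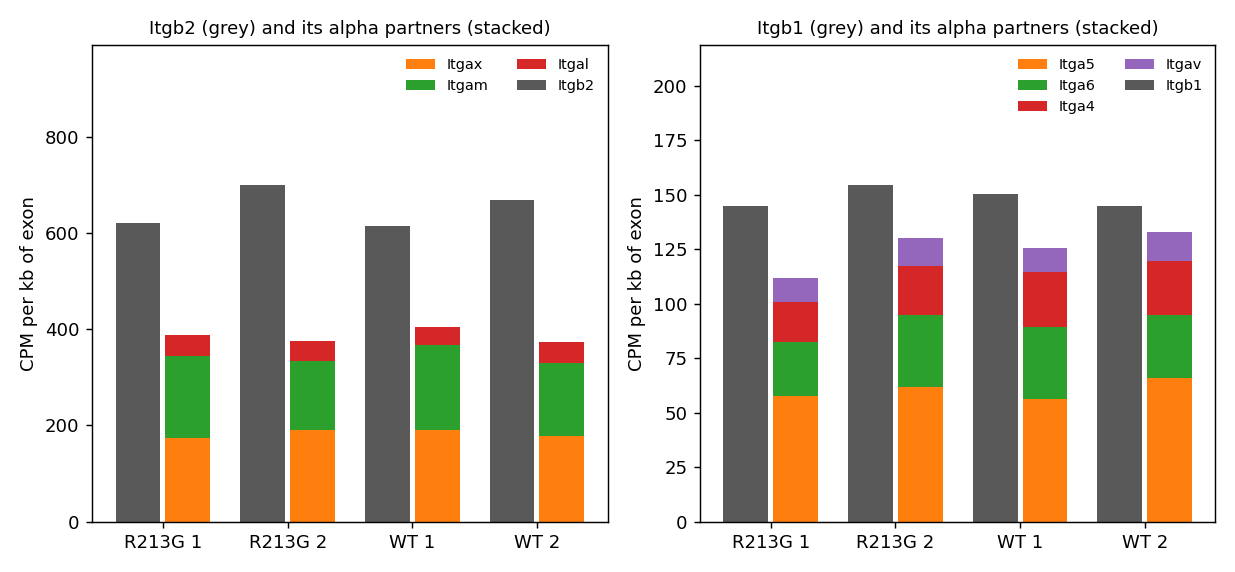
Level of Itgb2 (left, grey) and Itgb1 (right, grey) in CPM per kb of exon in each library, beside the stacked levels of their main alpha partners (both axes start at 0). Itgax and Itgam formed most of the Itgb2 stack, with Itgal at 9.49% to 11.5%, and Itga5 formed the largest part of the Itgb1 stack on this exon-length scale.

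The second question was whether the chains differed between R213G and WT macrophages. No integrin chain passed the test: 0 of 10 were called by the edgeR quasi-likelihood test at a Benjamini-Hochberg adjusted p of less than 0.05, where 0% of the 13575 genes were called, in either direction. Limma voom and DESeq2 also called 0 of the 10. At an unadjusted p under 0.05 there was 1 member by each of the 3 tools, Itga4, which was lower in R213G, against 2.22% of tested genes by edgeR in either direction and 1.29% lower in R213G. The fold change was positive for 3 members and negative for 7, and their median log2 value was -0.05, beside -0.01 over all tested genes, of which 49.1% were positive. The adjusted p was 0.9996 for each of the 10.

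Itga4 lies on chromosome 2, from 79255426 to 79333123 (GRCm38, plus strand). It had 351 and 345 CPM in WT replicates 1 and 2 and 256 and 312 CPM in R213G replicates 1 and 2. Both R213G libraries were below both WT libraries, which made Itga4 the 1 member of 10 whose genotypes did not overlap, where 28.9% of tested genes did not overlap. The log2 fold change was -0.30 ± 0.13 (SE; 95% interval -0.58 to -0.01; edgeR unadjusted p = 0.0438, adjusted p = 0.9996). R213G replicate 1, the library with the fewest genes detected, was the lowest. Without it the log2 fold change of Itga4 was -0.16. Without R213G replicate 2 that of Itga4 was -0.45, in a fit that also put Itga6 at -0.33. Without WT replicate 1 or 2 the log2 fold change of Itga4 was -0.28 and -0.31. Each of these fits leaves 1 genotype with 1 library, and the fit without R213G replicate 2 leaves R213G replicate 1 alone. They are given as effect sizes without a test. The exons of Itga4 overlap those of Cerkl on the opposite strand over 1124 bases (8.04% of its exons), and Cerkl had at most 130 counts in a library, beside at least 8727 for Itga4.

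For the beta chains at the top of the order, the difference between genotypes was smaller than the gap between libraries of 1 genotype. Itgb2 was at 1877 and 2041 CPM in WT and 1895 and 2134 CPM in R213G (log2 fold change 0.04 ± 0.12, 95% interval -0.22 to 0.30). Itgb1 was at 614 and 591 CPM in WT and 591 and 630 CPM in R213G (0.02 ± 0.11, interval -0.22 to 0.26). Itgb5 was at 793 and 679 CPM in WT and 630 and 795 CPM in R213G (-0.05 ± 0.14, interval -0.36 to 0.27). Their genotypes overlapped, and the intervals leave room for changes of up to 0.36 on the log2 scale.

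The remaining alpha chains likewise stood apart by less than the gap between libraries of 1 genotype. Itga5 had 278 and 325 CPM in WT and 285 and 305 CPM in R213G (log2 fold change -0.03 ± 0.12), so the WT libraries of this fibronectin receptor chain enclosed those of R213G. Itgal had 253 and 282 CPM in WT and 284 and 280 CPM in R213G (0.08 ± 0.12). WT replicate 1 was the lowest library of this LFA-1 chain, and the other 3 lay between 280 and 284 CPM. Itgav had 121 and 143 CPM in WT and 118 and 138 CPM in R213G (-0.05 ± 0.14). Itga6 had 296 and 261 CPM in WT and 222 and 298 CPM in R213G (-0.10 ± 0.15), with R213G replicate 1 again the lowest library. The libraries of the genotypes overlapped for each of these 4 chains.

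**Figure D4:**
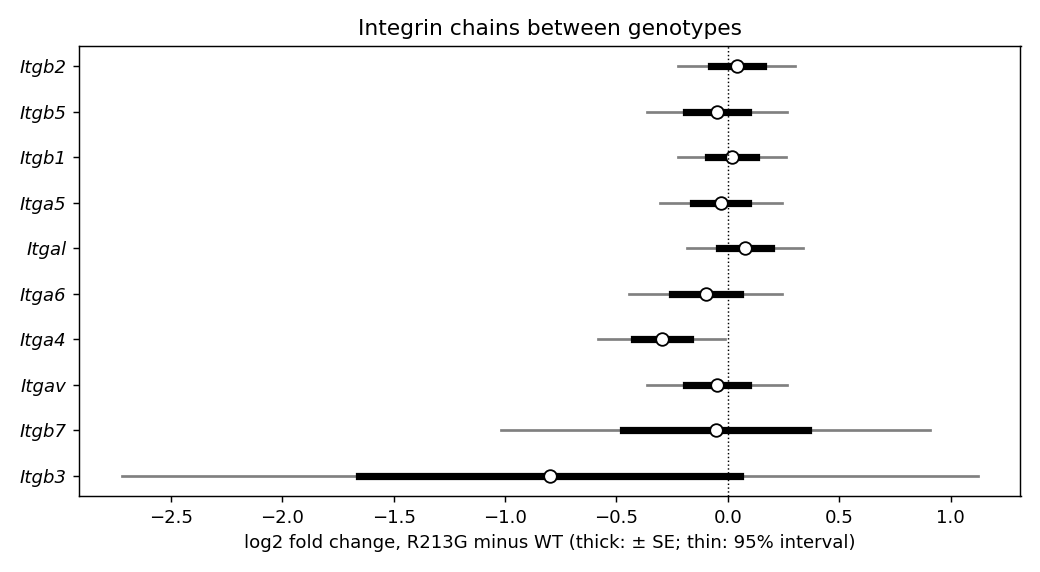
Log2 fold change of the 10 chains, R213G minus WT, from the edgeR fit (circle, estimate; thick bar, ± SE; thin bar, 95% interval before adjustment; dotted line, no difference). The estimates of 8 chains lay within 0.10 of 0; Itga4 lay at -0.30 and Itgb3 at -0.80 with a wide interval.

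The scarce beta chains were the variable ones. Itgb7 was at 46.6 and 17.4 CPM in WT replicates 1 and 2 and 37.3 and 24.1 CPM in R213G replicates 1 and 2. The gap within WT was 2.68-fold and within R213G 1.55-fold, while the difference between genotypes was -0.05 ± 0.42 on the log2 scale (95% interval -1.02 to 0.91). This value changed sign with the library left out: it was 0.82 without WT replicate 1, 0.22 without R213G replicate 2, -0.40 without R213G replicate 1 and -0.60 without WT replicate 2.

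Itgae, the other alpha partner of Itgb7, with which it forms the receptor for E-cadherin, moved between the same libraries: it was at 36.6 and 6.59 CPM in WT and 58.7 and 11.8 CPM in R213G. Replicate 1 was the higher library of both genotypes for both chains. The markers of dendritic cells summed to 190 and 46.6 CPM in WT and 196 and 56.3 CPM in R213G, Itgae itself being 1 of the 8. Within that list the lymph-node homing receptor Ccr7 was at 80.0 and 16.3 CPM in WT and 44.2 and 22.7 in R213G, and the cytokine receptor Flt3 at 30.6 and 7.11 in WT and 20.2 and 6.29 in R213G.

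In all, 5 of the 8 dendritic markers were higher in replicate 1 of both genotypes. The other 3 did not share this direction, and each was at 0 counts in at least 1 library and at most 36. Xcr1 and Clec9a mark cross-presenting dendritic cells, and Siglech marks plasmacytoid dendritic cells. Xcr1 had 0 and 15 counts in WT and 0 and 17 in R213G, so replicate 2 was the higher. Clec9a had 36 and 8 counts in WT and 0 and 20 in R213G. Siglech had 0 and 16 counts in WT and 16 and 14 in R213G. The share of all genes higher in replicate 1 of both genotypes was not counted. Kit, a receptor of mast cells and progenitors, was at 35.0 and 12.4 CPM in WT and 39.7 and 12.3 CPM in R213G; it was the 1 mast cell marker of 6 listed that the table held. Cdh1, the E-cadherin that Itgae with Itgb7 binds, was at 150 and 86.8 CPM in WT and 187 and 84.6 CPM in R213G. Of the sort-gate genes, Fcgr1 varied by 1.07-fold over the 4 libraries, Siglecf by 1.12-fold and Itgam by 1.23-fold. Itgam was also higher in replicate 1 of both genotypes, at 886 and 760 CPM in WT and 859 and 721 CPM in R213G. Siglecf shared this direction, and Fcgr1 did not in R213G (249.9 and 250.6 CPM). The part of dendritic and mast cells in the level of Itgb7 was not tested.

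**Figure D5:**
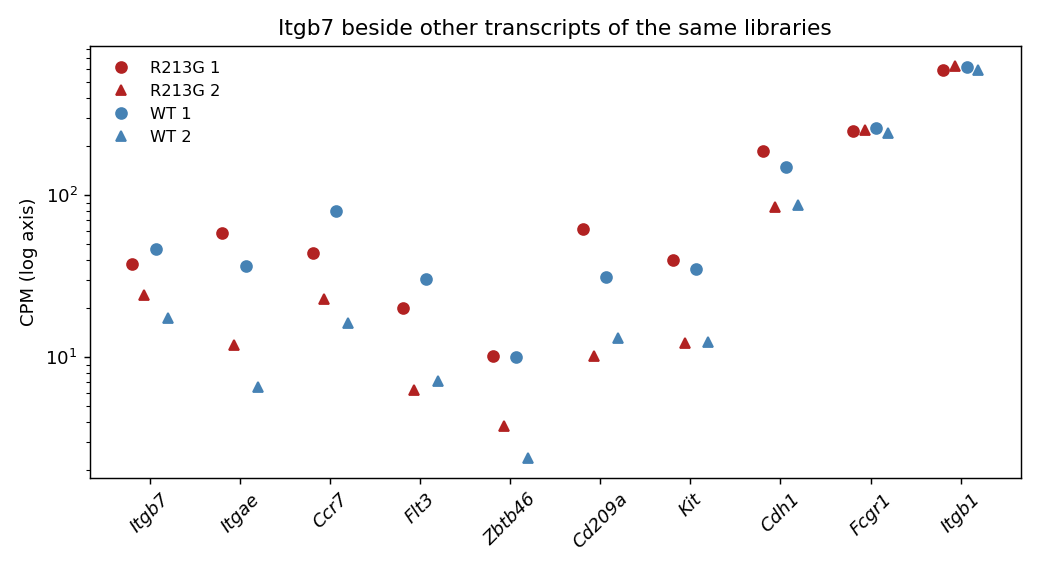
CPM (log axis) of Itgb7, its alpha partner Itgae, 4 further dendritic cell markers, Kit and Cdh1 in each library, with the sort marker Fcgr1 and Itgb1 at the right (red R213G, blue WT; circle replicate 1, triangle replicate 2). Replicate 1 was above replicate 2 within both genotypes for the first 8 genes, while Fcgr1 varied by 1.07-fold and Itgb1 by 1.07-fold. The dendritic markers shown are the 5 of 8 with this direction, so for them it was fixed by the choice. Xcr1, Clec9a and Siglech, which lacked it, are not shown. The sort-gate gene Itgam, also not shown, varied by 1.23-fold and was higher in replicate 1 of both genotypes.

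Itgb3 was at 3.33 and 0.758 CPM in WT and 0.996 and 1.32 CPM in R213G, so WT replicate 1 stood above the other libraries, which lay close together. Its log2 fold change, -0.80 ± 0.86, missed the threshold (95% interval -2.72 to 1.12, edgeR unadjusted p = 0.374), and without WT replicate 1 it was 0.61. Markers of platelets, the cells in which Itgb3 pairs with Itga2b, summed to 37.8 and 31.6 CPM in WT and 18.4 and 34.6 CPM in R213G, mostly from Pf4. Itga2b had 37 and 13 counts in WT and 27 and 15 in R213G. Ppbp and Tubb1 were at 0 in 2 libraries each and had at most 12 counts. The part of platelet RNA in the Itgb3 counts was not tested.

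Markers of other cells that carry these chains were low beside those of macrophages, which summed to 27849 to 35323 CPM and were led by the lysozyme gene Lyz2, but some exceeded the scarce chains Itgb7 and Itgb3. Summed over their lists, T and NK cell markers reached 8.23 to 18.0 CPM and B cell markers 0.466 to 2.21 CPM, led by Cd4 and Cd79b. Of the 8 T and NK cell markers in the table, 7 were at 0 in at least 1 library. Neutrophil markers, of which 5 of 9 were in the table, summed to 65.9 to 86.2 CPM, mostly from Csf3r. S100a9, Ltf and Cxcr2, 3 of the 5, were at 0 in at least 1 library. Csf3r was at 71.3 ± 4.57 CPM in WT and 50.3 ± 7.12 CPM in R213G (log2 fold change -0.50 ± 0.16, edgeR unadjusted p = 0.011, adjusted p = 0.9996). The part of neutrophil RNA in these counts was not tested. Endothelial markers summed to 99.6 to 143 CPM, nearly all from Vwf at 90.5 to 136 CPM. Kdr reached at most 7.35 CPM, Pecam1 3.06 and Cdh5 1.08. Markers of fibroblasts and mural cells, led by Acta2, summed to 3.22 to 6.50 CPM.

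The ligands of these receptors were read in the same libraries. Fn1, which encodes fibronectin, the ligand of Itga5 and Itga4 with Itgb1, was at 11239 and 13434 CPM in WT and 10662 and 9657 CPM in R213G. Both R213G libraries were below both WT libraries, where 28.9% of tested genes did not overlap in one direction or the other. The log2 fold change of Fn1 was -0.28 ± 0.13 (edgeR unadjusted p = 0.062, adjusted p = 0.9996). Spp1, which encodes osteopontin, a ligand of Itgav and Itga4 integrins, was at 7319 and 7316 CPM in WT and 5676 and 8486 CPM in R213G. Icam1, the ligand of LFA-1, was at 139 and 132 CPM in WT and 104 and 138 CPM in R213G. Vcam1, the ligand of VLA-4 on endothelium, was far lower, at 7.66 and 7.96 CPM in WT and 1.87 and 12.3 CPM in R213G. These were 253 and 273 counts in WT and 64 and 427 in R213G. Of 13 tested matrix ligands 6 had a positive fold change and 7 a negative one, and of 6 tested ligands on cells 2 were positive and 4 negative. The junction protein F11r led the latter at 273 ± 29.7 CPM in WT and 275 ± 39.1 CPM in R213G, and Pecam1 had the smallest p (log2 fold change -1.30 ± 0.71, 74 and 105 counts in WT, 24 and 50 in R213G).

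Integrins are switched on from inside the cell by talin and kindlin, which bind the tails of the beta chains. The main talin of blood cells, Tln1, was at 926 ± 14.5 CPM in WT and 911 ± 40.9 CPM in R213G (log2 fold change -0.02 ± 0.11). Of 14 tested activation genes 7 were positive and 7 negative, with a median log2 fold change of -0.01. Tln2, the other talin, had the smallest p of this list, with 25 and 38 counts in WT and 0 and 23 in R213G. Among 11 tested genes listed as restraining integrins 6 were positive. The actin crosslinker Flna led the list at 1932 ± 140 CPM in WT and 1972 ± 107 CPM in R213G. Mdga1, of smallest p in that list, was at 13.4 ± 1.83 CPM in WT and 8.58 ± 1.16 CPM in R213G. Nothing here shows that Mdga1 restrains integrins.

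Downstream of the receptors, 13 of 23 tested adaptors of adhesion complexes were positive, led by Zyx at 385 ± 11.1 CPM in WT and 426 ± 92.3 CPM in R213G. Tgfb1i1, an adaptor of the paxillin family and the gene of smallest p there, had 18 and 17 counts in WT and 0 in both R213G libraries. Of 19 signalling genes 10 were positive, led by the adaptor Tyrobp at 884 ± 76.8 CPM in WT and 874 ± 12.6 CPM in R213G, with Csk, an inhibitor of Src-family kinases, at 260 ± 13.9 CPM in WT and 293 ± 32.9 CPM in R213G. Of 15 membrane partners 10 were positive, led by Lgals3 at 1605 ± 21.3 CPM in WT and 1731 ± 51.8 CPM in R213G, with the tetraspanin Cd82 at 59.0 ± 7.06 CPM in WT and 71.0 ± 1.98 CPM in R213G.

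The integrin chains outside the 10 were mostly scarce apart from Itgam and Itgax. Of 9 tested alpha chains 4 were positive and 5 negative. Itgax was at 886 ± 38.3 CPM in WT and 873 ± 55.2 CPM in R213G, and Itgam at 823 ± 89.4 CPM in WT and 790 ± 97.4 CPM in R213G. Itga8, a chain of fibroblasts and mural cells, had 14 and 39 counts in WT and 0 in both R213G libraries. The epithelial chain Itgb4, which pairs with Itga6, had 0 and 1 counts in WT and 41 and 25 in R213G, and Epcam, an epithelial marker, had 491 and 329 counts in WT and 1101 and 515 in R213G. The epithelial list, led by Cdh1, summed to 165 and 99.3 CPM in WT and 222 and 103 CPM in R213G, and 5 of its 8 members in the table (Krt8, Krt18, Itgb4, Itgb6 and the surfactant gene Sftpc) were at 0 in at least 1 library. The part of epithelial RNA in these counts was not tested.

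Over these pathway lists 111 genes were tested, of which 59 had a positive and 52 a negative fold change, and a median log2 value of 0.01. None was called (0 of 111 by edgeR, DESeq2 or limma voom at an adjusted p under 0.05). At an unadjusted p under 0.05 DESeq2 gave 6, limma voom 1 and edgeR 6, 3 higher and 3 lower in R213G, beside 2.00%, 1.67% and 2.22% of all tested genes by the same tools. With a filter at a mean of 5 CPM the edgeR count was 0 of 92, beside 1.55% of all genes tested under that filter. Among those higher were Itga3 and Itgb4, and those lower were Itga8, Tgfb1i1 and the laminin chain Lamb2. These were scarce transcripts, with at most 50 counts in a library for Itga3 and at most 47 for Lamb2.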

How the data were processed

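RNA-seq of sorted recruited alveolar macrophages was analysed in 4 libraries, 2 R213G and 2 WT. The deposited values are raw counts for each gene symbol, not normalized. STAR 2.5.1b and featureCounts (Subread 1.4.4) on GRCm38 are named, per the submitters' processing notes. No source used here gives the annotation or the strand setting; without the strand setting, reads of Itga4 and Cerkl cannot be told apart where their exons overlap. Every pair of libraries differed beyond counting noise (chi-square of 17.5 to 57.1 per degree of freedom). The lowest value was between R213G replicate 2 and WT replicate 2, and the highest between the R213G replicates. Pairs with R213G replicate 1 stood at 47.1 or more and the other pairs at 33.2 or less. Depth was 33488569 to 35176210 counts per library.

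Genotypes were compared with the edgeR 4.0.16 quasi-likelihood test (newer form, robust, TMM, filterByExpr, Benjamini-Hochberg over 13575 genes, threshold 0.05, R 4.3.3). SE is the log2 fold change divided by the square root of F. Exon, longest-transcript and coding lengths were taken from the GENCODE vM21 annotation of GRCm38 (found for 96.7% of symbols). The fit was tested on simulated data. Alternatives were other scalings, filters and tools (DESeq2 1.42.0, limma 3.58.1 voom), a replicate block, other lengths and levels, and leaving out each library. Libraries were matched by short names in the labels.

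The members and lists were chosen with earlier results of these data known. Named genes were the members, the sort-gate genes, Itgam, Itgax, and the highest-level and smallest-p gene of each pathway list (the highest-level one of each marker list); others named, such as Itgae, Icam1, Vcam1, Spp1, Kit, Flt3, Xcr1, Clec9a, Epcam, Itga2b, Ppbp and Tubb1, were chosen after their values were seen. For 1 pathway gene no values are reported here.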

Additional observations from a re-analysis of the deposited data

How the results depend on the processing

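Of the 119 recomputed log2 fold changes of the 10 integrin chains, 102 kept their direction and 0 passed the threshold. Of the 17 that changed sign, 15 left out a library. When a library was left out the log2 fold change ranged from -0.14 to 0.084 for Itga5, -0.33 to 0.10 for Itga6, -0.00085 to 0.16 for Itgal, -0.16 to 0.077 for Itgav, -0.031 to 0.065 for Itgb1, -0.051 to 0.12 for Itgb2, -1.52 to 0.61 for Itgb3, -0.23 to 0.11 for Itgb5 and -0.60 to 0.82 for Itgb7. Itgb7 was also 0.085 with limma voom and 0.016 with the replicate block. Itga4 kept its direction in 12 of 12 (-0.45 to -0.16). Fits without a library leave 1 genotype with 1 library, which is assumed to vary like the other group. The number of genes called over the whole table was 0, but 1 with DESeq2 and 0 to 2 when a library was left out (2 without R213G replicate 2), none of them integrin or list genes. The 6 pairs with both chains at 10 CPM per kb remained 6 in number by the other lengths (coding length was added after seeing the data), by total counts and without any 1 library, but were 3 at a level of 20 (7 at 5). The labels give the replicates as numbers only. Same-numbered libraries' deviations from the group mean correlated at 0.0926 over 13575 genes. The replicate block called 0 genes, as did the main fit, so the calls could not show a difference. A batch shared by same-numbered libraries was not tested. With 2 libraries a group, the depth limits Itgb3 (26 to 110 counts) most. Itgb3 had no value under the filter at a mean of 5 CPM, and the coding length from a protein table was not run.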
